A study of Mus musculus with 8 samples.

Results

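The endothelial glycoprotein gene Vwf and 9 other genes of retinal vessels were followed through 8 libraries of adult mouse retina. All 10 genes were found by symbol among the 18058 genes of the table, and all 10 passed the minimum mean of 10 normalized counts that left 17636 genes for testing. Vwf was chosen for its lower level in the knockout libraries of this same table, so its values are given as a description without a test. The other genes were picked by cell type, to see whether endothelial cells and pericytes as a whole followed Vwf. Total RNA was sequenced from 4 WT mice of the inbred strain 129S2/SvPasCrl and from 4 quadruple KO mice, in which Bcan, Ncan, Tnc and Tnr are inactivated together. These genes encode the matrix molecules brevican, neurocan, tenascin-C and tenascin-R. The quadruple KO line arose from crosses of single KO lines. It is constitutive, so every cell type carried the inactivated genes, the vessel cells included. WT mice came from the inbred strain that the authors name as the background, and KO mice from this separately bred line. Genotype and line thus coincide in all 8 libraries. A difference between KO and WT is therefore one between lines as well, and the part of the inactivated genes in it was not tested. Retinae were pooled before RNA was extracted, and the labels count 4 mice of each genotype for the 8 samples. The libraries are named A to D within each genotype, and the sex, the age in days and any litter of the mice in each library are not given in the sources used here.

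Vessels of the retina consist of a tube of endothelial cells joined by tight junctions and wrapped by pericytes. Endothelial cells make von Willebrand factor, a large multimeric protein that is stored in Weibel-Palade bodies, is released upon stimulation and captures platelets at sites of injury. Its production differs between vessels and is typically higher in veins than in capillaries, whereas VE-cadherin (Cdh5), PECAM-1 (Pecam1) and claudin-5 (Cldn5) hold endothelial cells together. The receptors for VEGF (Kdr, Flt1) and angiopoietin (Tek) control vessel growth and quiescence, and PDGF-B from the endothelium (Pdgfb) recruits pericytes through their receptor (Pdgfrb).

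WT B and WT C stood apart from the other 6 libraries over all genes, so log2 differences that they move by much are also given without them. Signal recognition particle RNAs made up 19.3% of all counts for WT B and 14.8% for WT C against 6.82% to 8.69% elsewhere, and the mitochondrial mRNAs made up 0.402% and 0.341% against 1.28% to 1.64%. The estimated depth was 23.7 to 40.8 M reads in WT and 39.0 to 52.6 M reads in KO, so the KO libraries were mostly deeper. These depths are approximate, because they rest on the spacing of low values, which lay on whole steps for only 16.6% to 58.5% of values. Among the targeted genes, Ncan stood at 0.0566%, Bcan at 5.82% and Tnr at 42.9% of the WT mean, whereas Tnc stood at 92.9% with an adjusted p of 0.826 in the limma fit, so its RNA level does not check the label. Rod transcripts were abundant, with 289641 ± 47501 normalized counts of the rod transducin gene Gnat1 (SD, n = 4) in WT and 347106 ± 15575 in KO. Retinal identity was therefore clear, and the vascular genes formed a minor part of the RNA.

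Sequence upstream of the transcription start was at hand for 5 of the 10 genes (Tek, Kdr, Flt1, Mcam and Cldn5), from RefSeq on GRCm38.p6. No sequence is shown for Vwf, Pecam1, Cdh5, Pdgfb and Pdgfrb. The 250 bases before the start of Tek, Kdr and Cldn5 are given 5′ to 3′ on the coding strand, because Tek was the gene whose genotypes did not overlap, Kdr had the highest level and Cldn5 had the most negative difference among the genes tested. Capitals mark GGAA and its reverse complement TTCC, the core bound by ETS factors, the family of the endothelial regulators ERG and FLI1. The Tek stretch lies at chr4:94739039-94739288 on the plus strand, the Kdr stretch at chr5:75978456-75978705 on the minus strand and the Cldn5 stretch at chr16:18776597-18776846 on the plus strand.
Tek: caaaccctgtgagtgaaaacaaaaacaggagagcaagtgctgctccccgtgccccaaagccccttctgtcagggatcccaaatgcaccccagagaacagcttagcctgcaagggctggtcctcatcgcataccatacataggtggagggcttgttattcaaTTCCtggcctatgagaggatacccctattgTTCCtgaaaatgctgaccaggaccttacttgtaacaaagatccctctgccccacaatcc
Kdr: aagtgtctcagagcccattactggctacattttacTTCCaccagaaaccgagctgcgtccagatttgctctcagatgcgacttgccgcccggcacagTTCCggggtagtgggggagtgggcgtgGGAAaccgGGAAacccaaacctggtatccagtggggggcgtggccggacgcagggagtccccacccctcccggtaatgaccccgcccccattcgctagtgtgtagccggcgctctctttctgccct
Cldn5: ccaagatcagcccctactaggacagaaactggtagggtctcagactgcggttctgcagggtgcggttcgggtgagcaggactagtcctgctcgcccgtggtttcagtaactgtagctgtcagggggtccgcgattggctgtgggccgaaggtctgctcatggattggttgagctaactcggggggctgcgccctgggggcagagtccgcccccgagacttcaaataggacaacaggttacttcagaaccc
The core occurred 2 times upstream of Tek, 4 times upstream of Kdr and 0 times in the Cldn5 window. Flt1 held 4 matches and Mcam held 1. Matches to GATA on either strand were 1 for Tek, 1 for Kdr and 0 for the other three. Both motifs are short, and 93.4% of 32851 mouse promoters of the same length held GGAA and 53.6% held GATA, so the matches do not set these genes apart.

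Vwf (ENSMUSG00000001930.18) spans chr6:125523737-125663642 on the plus strand of GRCm39. The normalized counts were 229, 230, 274 and 326 in WT A to D and 56.2, 53.5, 36.9 and 70.0 in KO A to D. The lowest WT library was far above the highest KO library, and WT B and WT C lay among the other WT libraries. The mean was 265 ± 45.8 in WT and 54.1 ± 13.6 in KO (SD, n = 4 each), so the KO level was 20.5% of WT and 4.89-fold lower. On the scale of log2(normalized count + 1) the difference was -2.29 with a standard error of 0.21. It was -2.35 without WT B and WT C and -2.23 with WT B and WT C alone. The counts rest on an estimated 129 to 363 reads in WT and 52 to 76 reads in KO, so the transcript was still measured in every KO library.

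**Figure D1:**
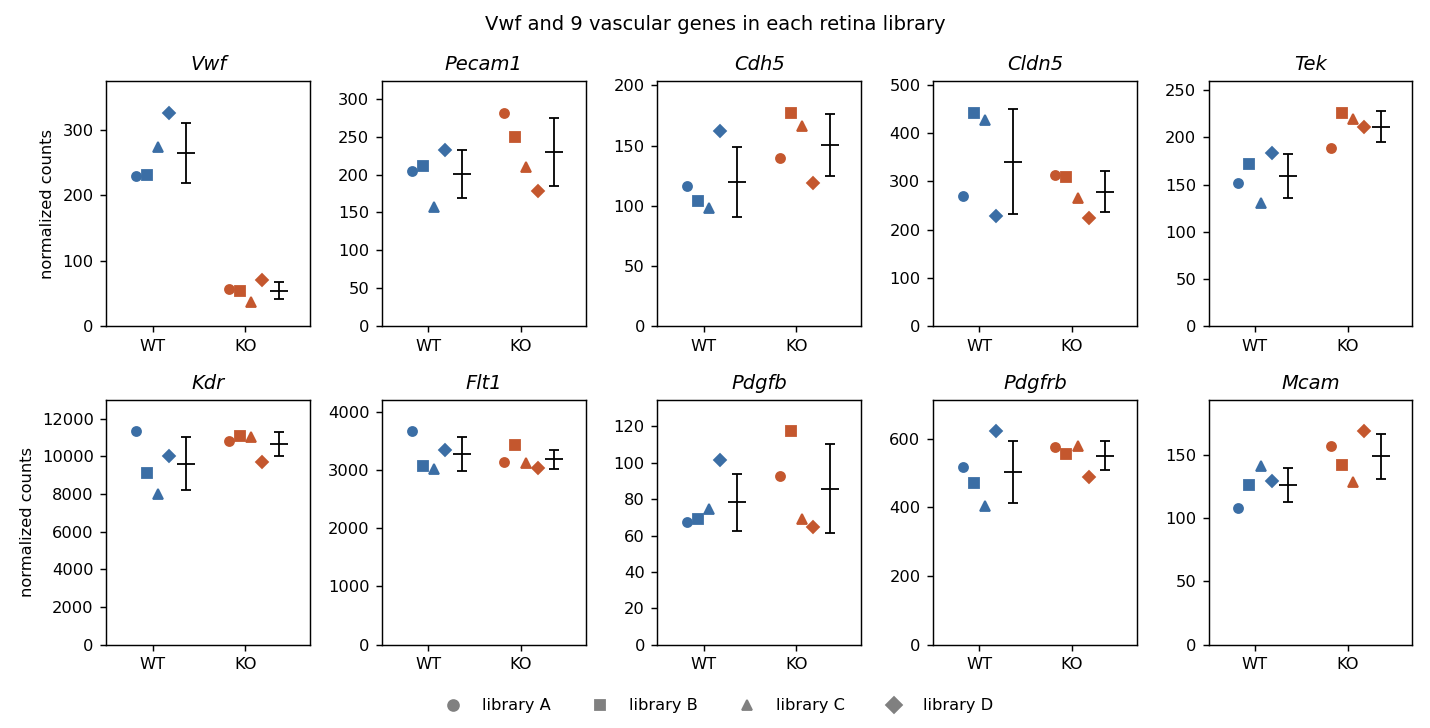
Normalized counts (linear axes from 0) of Vwf and the 9 other vascular genes, 1 symbol per library (blue WT, orange KO, symbol shape by library letter), with the mean ± SD of 4 libraries in black. Vwf separates the genotypes by a wide gap, Tek by a narrow one in the opposite direction, and the other 8 genes overlap.

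No lower level of the size seen for Vwf was found in the remaining endothelial and pericyte genes. Of the 9 genes, 7 had a higher mean log2 level in KO and 2 had a lower one, and 0 of 9 passed an adjusted p of 0.05 in limma over all genes tested, beside 0.437% of all genes (77 of 17636). At an unadjusted p under 0.05 the number was 1 of 9, beside 16.6% of all genes. Their median log2 difference was 0.16 against a median near 0 over all genes, of which 49.98% were higher in KO. Without WT B and WT C the 9 values ran from -0.14 (Flt1) to 0.34 (Tek), with the middle value at 0.06 (Pecam1). Every 95% interval of these 9 genes lay within -0.76 to 0.77, whereas Vwf differed by -2.29. In RNA of a whole tissue, fewer cells of a type and less RNA per cell cannot be told apart.

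The junction genes of the endothelium were measured first. Pecam1 (chr11:106543689-106641454, minus strand) encodes the adhesion molecule CD31, present on all endothelial cells. Its normalized counts were 204, 211, 157 and 232 in WT A to D and 281, 250, 209 and 179 in KO A to D. The genotypes overlapped widely, with a log2 difference of 0.19 (95% interval -0.20 to 0.57), an adjusted p of 0.522 in limma and a two-sided exact permutation p of 0.371. Without WT B and WT C the difference was 0.06, and with single libraries left out it was 0.07 without WT C, 0.08 without KO A and 0.30 without KO D. Cdh5 (chr8:104828231-104871143, plus strand) encodes VE-cadherin, the adherens junction protein of the endothelium. Its counts were 116, 104, 97.7 and 162 in WT and 140, 177, 166 and 119 in KO. KO A and KO D lay below the highest WT library, and the difference of 0.34 (-0.09 to 0.77) had an adjusted p of 0.337 in limma and an exact permutation p of 0.171. WT B and WT C were the lowest WT libraries for Cdh5, and without them the log2 difference was 0.12.

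Cldn5 (chr16:18595597-18597012, plus strand) encodes the main claudin of the blood-retina barrier. Its counts were 269, 442, 426 and 228 in WT A to D and 314, 309, 265 and 224 in KO A to D. WT B and WT C were the 2 highest of the 8 libraries, while WT A and WT D lay within the KO range. The log2 difference was -0.25 (95% interval -0.76 to 0.26) with an adjusted p of 0.512 in limma and an exact permutation p of 0.314. It turned to 0.15 without WT B and WT C, so the lower KO mean of Cldn5 moved with the pair of WT libraries that stood apart.

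Among the receptors, Tek had the largest difference. Tek (chr4:94627291-94763224, plus strand) encodes TIE2, the angiopoietin receptor that keeps vessels quiescent. Its counts were 151, 171, 131 and 183 in WT and 189, 226, 219 and 211 in KO. Every KO library lay above every WT library, although KO A exceeded WT D only slightly, and 1 of the 9 genes (Tek) had such separate genotypes beside 9.74% of all genes tested. The mean was 159 ± 23.1 in WT and 211 ± 16.2 in KO (SD, n = 4), and the log2 difference of 0.42 (95% interval 0.12 to 0.71) had an unadjusted p of 0.011 and an adjusted p of 0.301 in limma. The exact permutation p of 0.0286 is the smallest that 4 against 4 libraries can give. Without WT B and WT C the difference was 0.34.

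Kdr (chr5:76093487-76139884, minus strand) encodes VEGFR2, the main signaling receptor for VEGF, and is also known from neural cells of the retina. Its counts were 11326, 9098, 8003 and 10014 in WT and 10839, 11069, 11037 and 9727 in KO. WT B and WT C were low, and the log2 difference of 0.16 (95% interval -0.08 to 0.40, adjusted p of 0.387 in limma, exact permutation p of 0.257) was 0.00 without WT B and WT C. Flt1 (chr5:147498414-147662826, minus strand) encodes VEGFR1, which binds VEGF and limits its action on VEGFR2. Its counts were 3668, 3076, 3016 and 3350 in WT and 3146, 3430, 3130 and 3039 in KO. The KO libraries lay inside the WT range, with a log2 difference of -0.04 (95% interval -0.22 to 0.14), the narrowest interval of the 10 genes, an adjusted p of 0.795 in limma and an exact permutation p of 0.686. The sign of this small value turned to 0.02 when WT A was left out.

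The ligand and the receptor of pericyte recruitment gave no difference past the test either. Pdgfb (chr15:79880009-79899181, minus strand) had 67.5, 68.9, 74.8 and 102 normalized counts in WT A to D and 92.8, 117, 68.9 and 64.4 in KO A to D. The KO libraries enclosed the whole WT range, and the log2 difference was 0.11 (95% interval -0.39 to 0.61) with an adjusted p of 0.780 in limma and an exact permutation p of 0.657. It was -0.05 without KO B, the highest library. Pdgfrb (chr18:61178212-61218133, plus strand), expressed by pericytes and smooth muscle cells, had 517, 470, 405 and 622 counts in WT and 576, 556, 581 and 489 in KO. The KO libraries lay inside the WT range, with a log2 difference of 0.14 (-0.16 to 0.44), an adjusted p of 0.522 in limma and an exact permutation p of 0.400. Without WT B and WT C the value was -0.05.

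Mcam (chr9:44045504-44054025, plus strand) encodes CD146, an adhesion molecule of endothelial cells and pericytes. Its counts were 108, 126, 141 and 129 in WT A to D and 157, 142, 128 and 168 in KO A to D. KO C lay within the WT range and the other KO libraries lay above it, and the log2 difference of 0.24 (95% interval -0.07 to 0.54) had an adjusted p of 0.337 in limma and an exact permutation p of 0.114. Without WT B and WT C it was 0.32.

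**Figure D2:**
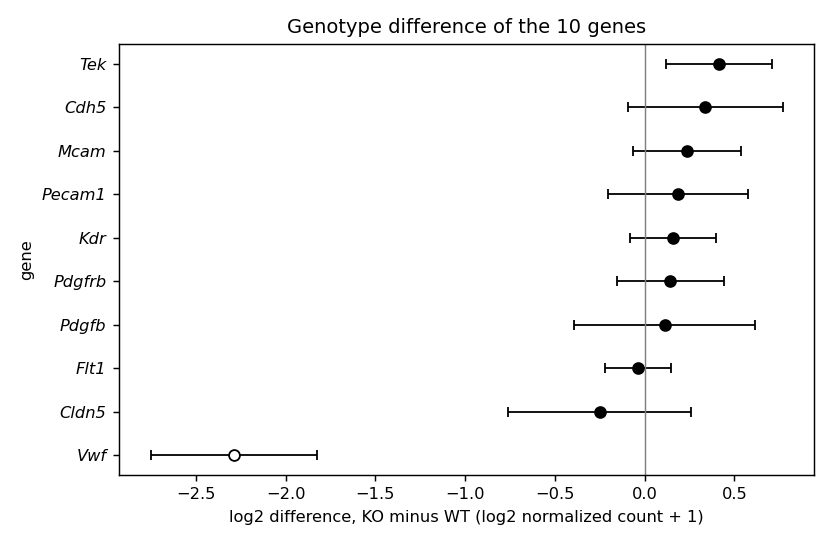
Log2 difference (KO minus WT, on log2 of the normalized count + 1) of the 10 genes with the 95% interval of the fit over 8 libraries. The interval of Tek (0.12 to 0.71) leaves out 0 before adjustment, the other 8 filled symbols have intervals that include 0, and the open symbol of Vwf at -2.29 is the gene chosen for its level.

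Levels were compared between genes only per kb of annotated exon. The length joined all annotated exons of a gene, with 16729 bases for Vwf, 10002 for Pecam1 and 1416 for Cldn5. The order of the genes depends on this choice of length. In WT, Kdr stood highest with 1045 ± 153 normalized counts per kb, followed by Cldn5 with 241 ± 76.7 and Flt1 with 240.0 ± 21.8, which did not differ beyond their spread. Pdgfrb reached 62.2 ± 11.3 and Mcam 34.9 ± 3.80 counts per kb. Cdh5 with 27.4 ± 6.67 and Tek with 26.5 ± 3.85 were alike within their spread, as were Pecam1 with 20.1 ± 3.17, Pdgfb with 18.4 ± 3.74 and Vwf with 15.8 ± 2.74. In KO, Vwf had 3.24 ± 0.81 counts per kb and was separated from the next gene, Pdgfb, with 20.2 ± 5.73. By this measure, Vwf was among the low vascular transcripts of WT retinae, within the range of Pecam1 and Pdgfb. It stood alone at the bottom in KO retinae.

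Vwf was then set against the level of other endothelial genes in each library. The mean log2 level of Pecam1, Cdh5, Cldn5, Tek, Kdr and Flt1 was 9.18 ± 0.10 in WT and 9.32 ± 0.14 in KO (SD, n = 4 each). The log2 level of Vwf minus this mean was -1.35, -1.38, -0.94 and -0.91 in WT A to D and -3.53, -3.69, -4.09 and -2.98 in KO A to D. The genotypes stayed as far apart as for Vwf alone, with means of -1.15 and -3.57 and a difference of -2.42. Without Kdr and Flt1, whose levels were far above the others, the difference was -2.46. It was -2.44 without WT B and WT C. The mean of the endothelial genes was slightly higher in KO, so subtracting it could not narrow the gap in Vwf. The values are a description without a test, as Vwf was selected on its level. The part of endothelial content in the level of Vwf was not tested.

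**Figure D3:**
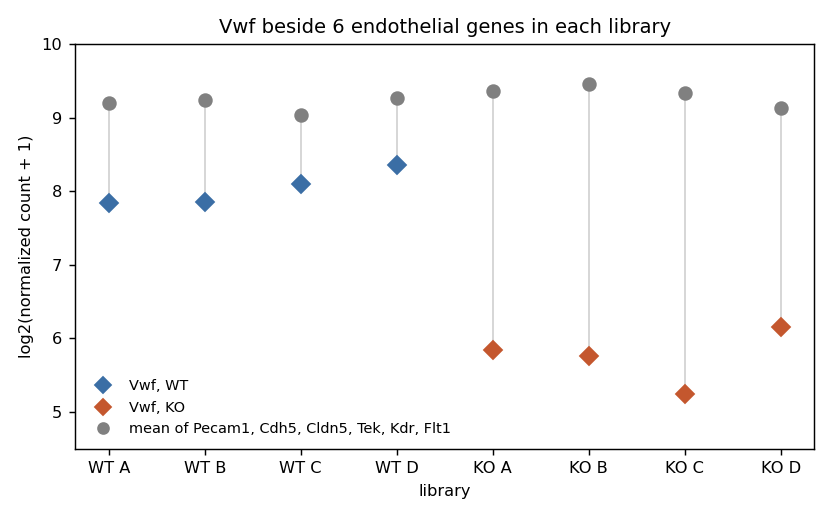
Log2 of the normalized count + 1 in each library for Vwf (diamonds, blue WT and orange KO) and for the mean of 6 endothelial genes (grey circles). The grey mean stays between 9.04 and 9.46 in the 8 libraries, while Vwf lies between 7.84 and 8.35 in WT and between 5.24 and 6.15 in KO.

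A wider set of endothelial markers was examined to see whether the 9 genes were typical. Of 22 further markers, 0 were called, 16 had a higher and 6 a lower mean log2 level in KO, and the median log2 difference was 0.15. At an unadjusted p under 0.05 in limma there were 3 of 22, beside 16.6% of all genes tested, and 0.437% of all genes were called. Icam2, an adhesion molecule for leukocytes, had 9.62 ± 3.11 normalized counts in WT and 15.4 ± 1.71 in KO, and Fli1, an ETS factor of endothelial cells, had 33.6 ± 10.3 and 47.4 ± 2.87 (adjusted p of 0.301 for both in limma). Podxl, a sialomucin also made by other cells, and the phosphatase gene Ptprb had the highest counts, with log2 differences of -0.21 and 0.33. Both values rested on WT B and WT C, which were the highest WT libraries for Podxl and the lowest for Ptprb, and became 0.08 and 0.02 without them. Without the same libraries Icam2 stood at 0.51 and Fli1 at 0.27, and the list median was 0.02. That median was also 0.05 without WT C alone and 0.24 without WT D.

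The storage organelle of VWF was described by 8 genes for cargo and release of Weibel-Palade bodies, with Selp and Sytl4 not analysed here. Among these, 0 were called, beside 0.437% of all genes tested, a share at which a list of this size would rarely hold a call. The same share stands beside the calls of the lists below. The median log2 difference was -0.03, with 3 higher and 5 lower, and between -0.09 (without KO C) and 0.01 (without KO D) with 1 library left out. Angpt2, a cargo and a ligand of TIE2, had a log2 difference of 0.25 (0.06 without WT B and WT C) and Edn1, the endothelin-1 gene, had -0.03 (-0.17 without them). Unc13d and Rab3d, which act in granule exocytosis, had -0.33 and -0.32, and Cd63, a membrane protein of these granules and of endosomes, had -0.31. For these last 3 genes WT B and WT C were both above WT A and WT D, and without them the values were -0.09, 0.02 and -0.01. Plat, which encodes tissue plasminogen activator, had 420 ± 38.0 normalized counts in WT and 451 ± 32.6 in KO, a log2 difference of 0.11 that was 0.00 without WT B and WT C.

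Genes that act on the VWF protein were sparse. Of the 5 tested, 0 were called and 4 were lower in KO, with a median log2 difference of -0.30 that was -0.09 without WT B and WT C. F8, the coagulation factor carried by VWF, had a log2 difference of 0.17 that turned to -0.11 without them. Furin, the protease that removes the VWF propeptide, had 1500, 4423, 4111 and 1585 counts in WT A to D and 1776, 1608, 1624 and 1705 in KO A to D. WT B and WT C alone made its WT mean high, and the log2 difference of -0.61 turned to 0.12 without them. Thbs1, the thrombospondin-1 gene, had -0.30 (-0.50 without WT B and WT C) and Gp5, part of the platelet receptor for VWF, had -0.35 (-0.09 without them). Adamts13, Gp1ba and Gp9 were not analysed here.

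Among 12 other markers of pericytes and vascular smooth muscle, 0 were called, 3 were higher and 9 lower in KO, and the median log2 difference was -0.12. This median depended on single KO libraries, being -0.01 without KO D and -0.22 without KO B, and it was -0.20 without WT B and WT C. Rgs5, a classic pericyte gene, had 778 ± 235 counts in WT and 788 ± 147 in KO, with a log2 difference of 0.05 that turned to -0.34 without WT B and WT C. Notch3, the Notch receptor of mural cells, had 173, 216, 166 and 126 counts in WT A to D and 125, 124, 104 and 88.7 in KO A to D. Its genotypes did not overlap, with a narrow gap, and the log2 difference of -0.61 (95% interval -1.03 to -0.20) had an adjusted p of 0.301 in limma and was -0.43 without WT B and WT C. Acta2, smooth muscle actin, had -0.44 and Higd1b had -0.47, neither past the test, and the WT mean of Higd1b was carried by WT B and WT C, with 18.4 and 21.4 counts against 7.14 and 6.43. Vtn, the most abundant gene of this list, is also made by other retinal cells and had -0.01 (0.08 without WT B and WT C). Anpep and Cnn1 were not analysed here.

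The ligands and co-receptors that signal to these cells gave 0 calls among 11 genes tested, with a median log2 difference of -0.01 that lay between -0.09 and 0.06 with 1 library left out. Vegfa had 3020 ± 435 counts in WT and 3205 ± 191 in KO (log2 differences of 0.09 with all libraries and -0.04 without WT B and WT C), and the co-receptor Nrp2 had 955 ± 77.8 and 1030 ± 38.1. Pdgfa, the ligand of the receptor encoded by Pdgfra on retinal astrocytes, had 201, 297, 348 and 194 counts in WT and 180, 155, 148 and 155 in KO. Its KO libraries all lay below the WT libraries, yet the log2 difference of -0.66 had an adjusted p of 0.301 in limma, and WT B and WT C were its 2 highest libraries, without which it was -0.31. Pdgfra had -0.30 and likewise did not overlap between genotypes, with an adjusted p of 0.301. Vegfc, a ligand of VEGFR3, had -0.65 with 129 counts in WT B alone, and -0.18 without WT B and WT C. Angpt1, the activating ligand of TIE2, had 0.50 and an adjusted p of 0.321 in limma, but WT B and WT C were its lowest libraries and the value was 0.08 without them. Vegfd was not analysed here.

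The barrier genes were tested as a further function of retinal endothelium. Of 20 genes for tight junctions, transporters and Norrin signaling, 0 were called, 12 were higher and 8 lower in KO, and the median log2 difference was 0.09, between 0.04 (without KO B) and 0.13 (without KO A) with 1 library left out. Mfsd2a, the lipid transporter of barrier endothelium, had 54.4 ± 20.5 counts in WT and 70.2 ± 7.07 in KO, with a log2 difference of 0.42 that was 0.25 without WT B and WT C. Tspan12, a co-receptor of Norrin signaling, had 398, 578, 311 and 315 counts in WT and 310, 264, 262 and 284 in KO, with a gap of less than 1 count between the nearest libraries. Its log2 difference of -0.47 had an adjusted p of 0.301 in limma and was -0.34 without WT B and WT C. The Norrin receptor gene Fzd4 had 0.37 and the Norrin gene Ndp 0.14, against 0.22 and 0.07 without those libraries. Fzd4 and Ndp were higher in each KO library than in each WT library, and Ctnnb1, the β-catenin gene with the highest count of this list, had -0.08.

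**Figure D4:**
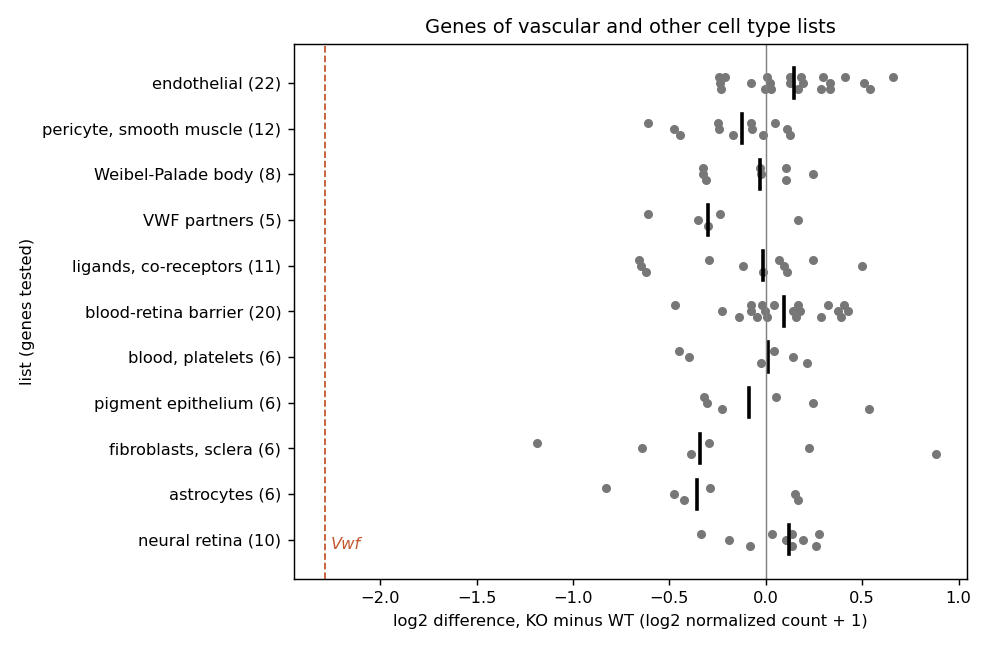
Log2 difference (KO minus WT) of every tested gene in 11 lists, with the list median as a black bar, the number of genes tested in parentheses and Vwf as the dashed line at -2.29. The medians lie between -0.36 (astrocytes) and 0.15 (endothelial), and no gene of any list comes near Vwf.

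Markers of other cells were measured beside Vwf, since platelets also carry VWF and since other tissue in a dissection would change the vascular share. For red blood cells and platelets, 0 of 6 genes tested were called, with a summed level of 1083 to 1654 normalized counts in WT and 850 to 1242 in KO, ranges that overlap. The hemoglobin genes Hbb-bs and Hba-a2 had log2 differences of -0.45 and -0.40 with adjusted p of 0.301 in limma, and the platelet integrin gene Itga2b had -0.02. These values were -0.20, -0.30 and 0.32 without WT B and WT C. The defining platelet genes Pf4 and Ppbp were not analysed here. Hba-a1 and Hbb-bt, near-identical copies of these genes, had 0.14 and 0.22, so the split of reads between copies is uncertain.

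Of the retinal pigment epithelium markers, 0 of 6 were called and the summed level was 2158 to 6485 in WT and 2426 to 3736 in KO. WT D held the highest value, with 2610 counts of Rgr and 3008 of Ttr, and it also held the highest Vwf value, 326. Best1 had a log2 difference of 0.54 at 12.4 ± 3.04 counts in WT. Without WT D, the log2 difference of Vwf was -2.18 and the list median turned from -0.09 to 0.21. Rpe65 and Mlana were not analysed here.

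Fibroblast and scleral markers gave 0 of 6 calls, with a summed level of 672 to 956 in WT and 562 to 687 in KO. Col3a1 had 18.3, 66.3, 96.7 and 20.2 counts in WT A to D and 13.8 to 20.8 in KO, so the high values were those of WT B and WT C. Dcn went the other way with 13.8 ± 6.79 and 24.8 ± 6.32 counts, and Col1a2 had a log2 difference of -0.39. The log2 differences of Col3a1 (-1.19), Dcn (0.88) and Col1a2 were -0.19, 0.31 and -0.03 without WT B and WT C. The list median of -0.34 was -0.07 without WT B and WT C. Lum was not analysed here. Astrocyte markers, which follow the vessels on the inner surface, gave 0 of 6 calls and a median of -0.36, with summed levels of 9836 to 13243 in WT and 11599 to 13756 in KO. Pax2, a transcription factor of retinal astrocytes, had 25.0 ± 5.40 counts in WT and 13.5 ± 2.90 in KO, and S100b had 206 ± 23.7 and 148 ± 19.6 (adjusted p of 0.301 for both in limma). Their log2 differences of -0.83 and -0.48 were -0.62 and -0.57 without WT B and WT C. Aldh1l1, a folate enzyme gene of astrocytes, had 452 to 658 counts in WT and 392 to 444 in KO, without overlap, and a log2 difference of -0.29 (adjusted p of 0.301 in limma, and -0.13 without WT B and WT C). Gfap, the glial filament gene, had 627 ± 155 and 486 ± 224 counts and a log2 difference of -0.43 (adjusted p of 0.406 in limma, and -0.65 without WT B and WT C). Aqp4 and Slc1a3, which Müller cells express as well, had 0.15 and 0.17, and 0.05 and -0.03 without those libraries. For the neural retina 0 of 10 genes were called, with log2 differences of 0.28 for Gnat1 and -0.34 for the ganglion cell transporter gene Slc17a6, which were 0.08 and -0.15 without WT B and WT C. The part of these cells in the level of Vwf was not tested.

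Over the 11 lists, 110 genes were tested and 0 were called by limma, beside 0.437% of all genes tested, while 19 had an unadjusted p under 0.05, beside 16.6%. By list, the latter number was 3 of 6 for astrocytes and 3 of 6 for fibroblasts. It was 0 of 8 for Weibel-Palade body genes, 0 of 5 for VWF partners and 0 of 6 for pigment epithelium. The other lists had 1 to 4. The number of list genes called was also 0 without WT B and WT C and in each fit that left out 1 library.

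The surroundings of Vwf on chromosome 6 were examined last. Within 1 Mb, 43 genes were tested and 0 were called by limma, beside 0.437% of all genes tested. At that share 43 genes are too few for 0 calls to set the surroundings apart. At an unadjusted p under 0.05 in limma there were 8, beside 16.6% of all genes tested. Of the 43 genes, 16 were higher and 27 lower in KO, and the median log2 difference was -0.08. The range was -0.73 to 0.71. These values are those with all 8 libraries, and many of them moved with WT B and WT C. The lowest, Lag3, was -0.26 without these libraries, and the highest, Ptpn6, was 0.38. The nearest gene tested before Vwf was Cd9, a tetraspanin gene, 52.0 kb away with a log2 difference of 0.07. The nearest after it was Ano2 (chr6:125667059-126017116), a chloride channel gene of photoreceptors that begins 3.42 kb after the end of Vwf on the same strand. Ano2 had 5986, 11570, 11892 and 5546 counts in WT A to D and 5646, 4792, 5295 and 5501 in KO A to D. WT B and WT C lay far above the other 6 libraries, and the log2 difference of -0.63, with an adjusted p of 0.301 in limma, was -0.12 without them.

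**Figure D5:**
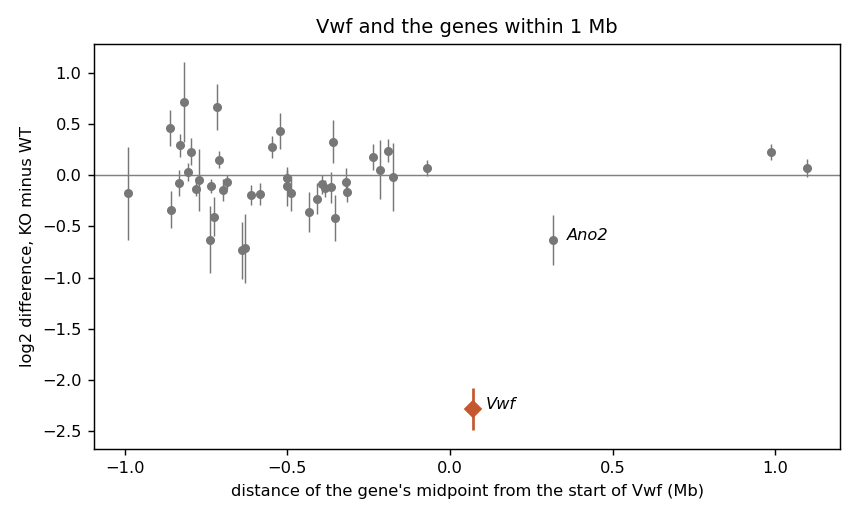
Log2 difference (KO minus WT, ± SE) of Vwf and of the 43 genes tested within 1 Mb, by the distance of the gene's midpoint from the start of Vwf in Mb. The neighbors lie between -0.73 and 0.71, including Ano2 at -0.63 (-0.12 without WT B and WT C), and Vwf lies at -2.29.

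Genes with the profile most like Vwf were found by Pearson's r of the log2 levels over the 8 libraries, as a description. The highest values were 0.977 for Gm10503, 0.973 for Slc5a8, 0.971 for Gm49968, 0.965 for Gm50240 and 0.960 for Ncan. All 5 are lower in KO, so this likeness mostly restates the genotype gap by which Vwf was chosen. After each genotype was centered on its own mean, the highest values were 0.984 for Ankdd1b, 0.932 for Zkscan6, 0.916 for Gm39041, 0.909 for Dnase1l1 and 0.909 for Pcdhga12. On the same centered scale the r with Vwf was 0.80 for Mcam and between -0.34 and 0.31 for the other 8 vascular genes. With 8 libraries and 2 fitted means, these values carry wide error and share the depth and makeup of the same libraries.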

How the data were processed

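The authors prepared libraries from 450 ng of total RNA with a stranded kit, trimmed the reads with Trim Galore 0.6.7, aligned them to GRCm39 with STAR 2.7.9a, quantified genes with Salmon 1.5.2 and normalized with DESeq2 1.32.0 in R 4.1.1. The deposited values are these normalized counts (estimated counts divided by scaling factors), 1 column per library, and the lowest mean in the table was 8.50. Their columns of fold changes and p-values were not used. Whole reads could not be recovered from the values, so no count model was run and depths are estimates. Genes with a mean of at least 10 were tested as log2(normalized count + 1) in limma 3.58.1 (lmFit, eBayes with trend, Benjamini-Hochberg over 17636 genes, called at an adjusted p under 0.05), after a test on simulated data. The log2 scale understates differences of low genes. Exact permutation tests were two-sided, over 8 libraries. The members and lists were chosen with earlier results of these data known, and Vwf was chosen on its values, so it has no p. Samples were grouped by the genotype in the labels, and p-values measure the spread between these samples. Named list genes were those called, the 2 with the largest log2 difference and the 2 with the highest mean, and others were named for their role after their values were seen, while some named by this rule are not reported here. Exonic lengths and positions came from GENCODE vM39, which placed 17969 of 18058 genes. Alternatives were 2 normalizations, filters, pseudocounts, variance models, library weights, a letter block and subsets of libraries.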

Additional observations from a re-analysis of the deposited data

How the results depend on the processing

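Vwf kept its direction under all 20 alternatives, with log2 differences of -2.42 to -2.11 and, with 1 library left out, -2.42 to -2.12. Its level relative to 6 endothelial genes differed by -2.62 to -2.24. The letters A to D were not used as pairs in the main fit. The deviations of same-letter libraries correlated at -0.0097 (A), -0.11 (B), 0.098 (C) and 0.05 (D). Libraries of different letters correlated at -0.132 to 0.115. These values show no pairing by letter, and they cannot exclude one. With the letter as a replicate block, 51 genes were called, all among the 77, Vwf stood at -2.29 with a standard error of 0.18, and no call of a vascular gene changed. Array weights, which set WT B and WT C at 0.164 and 0.156, gave 143 calls, and leaving out 1 library gave 54 to 89. These weights turned Cldn5 to 0.048 and Kdr to -0.012 and moved the median of the neural retina list to 0.054. Without WT B and WT C, 99 genes were called (74 of the 77 among them), Cldn5 turned to 0.15, Pdgfrb to -0.045 and the neural retina median moved to 0.045, and no list gene was called. The opposite subset, WT B and WT C alone, was added after seeing the data and called 9115 genes (4503 higher in KO), 55 of the list genes and 24 genes within 1 Mb of Vwf. In it Cdh5 (0.56), Tek (0.49), Kdr (0.32) and Pdgfrb (0.33) were called higher and Cldn5 (-0.65) lower, Flt1 turned to 0.063, and the medians moved to -0.61 for VWF partners and 0.22 for neural retina. Flt1 was between -0.077 and 0.018 with 1 library left out (0.018 without WT A) and Pdgfb between -0.051 and 0.24 (-0.051 without KO B). A minimum mean of 100 left 3 blood genes with a median of -0.40. The cause of these shifts was not tested. The error was set by spread between libraries as well as by depth, with a standard error of 0.28 for Icam2 at 9.62 WT counts and 0.35 for Furin at 2905 WT counts.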

Other observations

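Over all genes tested, 77 of 17636 (0.437%) were called by limma, 31 of them lower in KO. The 893 genes tested on chromosome 6 include Vwf, which is left out of the calls because it was chosen on its values. Of the others, 4 were called, a roughly similar share, and all 4 were lower in KO. The nearest of them, Nrip2, a nuclear receptor co-regulator gene, lies 2.71 Mb from Vwf (chr6:128374747-128393390, GRCm39) and was named after its values were seen. It had 294, 312, 331 and 258 normalized counts in WT A to D and 93.0, 71.8, 41.1 and 57.8 in KO A to D, a log2 difference of -2.22 with a standard error of 0.23, and of -2.11 without WT B and WT C. The genotypes did not overlap, and the size was close to that of Vwf. The part of the breeding line in the differences of Vwf and Nrip2 was not tested. The glycolytic enzyme gene Hk2, 42.8 Mb away, had 24928 ± 2415 counts in WT and 17031 ± 1350 in KO (SD, n = 4 each). The vomeronasal receptor genes Vmn1r14 and Vmn1r15, 68.3 Mb away, had 216 ± 43.7 and 27.3 ± 7.29 counts in WT and 2.59 ± 2.997 and 1.002 ± 1.10 in KO, and as members of a large gene family their reads may be shared with related copies.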
